A study of Mus musculus with 2 samples.

Results

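The genes described here break down the branched-chain amino acids leucine, isoleucine and valine, carry the propionate made from them into the citric acid cycle, and make or use ketone bodies. They were a named list of 29 mouse genes, read from the gene spots of both arrays whose gene name is on the list. Of these, 28 were found under their own name among 27962 gene names on the array. Hsd17b10 was present only under its older name Hadh2, recognised by its accession, and stands apart from the counts. All 28 passed the filter on dim signal on both arrays (at least 1 probe well above background in at least 1 channel), as did 20564 gene names in all in tissue and 19474 in adipocytes.

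Branched-chain amino acids lose their amino group to a transaminase in a reversible step, and the branched-chain keto acid dehydrogenase complex (BCKDH) of mitochondria then commits them to breakdown. Leucine ends as acetyl-CoA and the ketone body acetoacetate, valine as propionyl-CoA, and isoleucine as acetyl-CoA and propionyl-CoA, which biotin and cobalamin (vitamin B12) enzymes convert to succinyl-CoA. Brown fat, the heat-producing fat of mice, is known to take up and oxidise branched-chain amino acids, and also oxidises ketone bodies made in liver.

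Prkg1 encodes PKGI, a protein kinase that cGMP switches on. RNA from a mouse without PKGI (KO) was compared with RNA from its wild type littermate (WT), and all mice were of the C57BL/6N background. One 2-colour array compared untreated brown adipose tissue of a KO mouse, in the red dye Cy5, with that of a WT littermate in the green dye Cy3. The other compared brown adipocytes differentiated in culture from preadipocytes of a KO and a WT littermate, with KO in Cy3 and WT in Cy5. Further biological replicates went to real-time PCR and not to arrays, according to the design text, and are not analysed here. The allele behind the PKGI loss, age and sex are not given in the sources used here. Each comparison is therefore 1 array with no replicate, no dye-swapped repeat and no test, and every difference describes those 2 RNA samples. The technical spread can be read from the arrays on the log2 scale. Repeated spots of the same probe had a pooled SD of 0.11 in tissue and 0.10 in adipocytes (245 probes each). Different probes of the same member had a median SD of 0.27 (13 members) and 0.20 (14 members).

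Of the gene spots, between 63.1% and 74.1% per RNA sample were well above background. The 2 Prkg1 probes above background in both channels were lower in KO on each array, by log2 ratios of -1.29 and -1.22 in tissue and -0.94 and -2.31 in adipocytes. Another probe read 0.01 and 0.17, with WT not well above background, and the last was not above background in any sample. Sex-linked genes differed between the tissue samples: Xist had a log2 ratio of 4.41, and Eif2s3y, Ddx3y, Kdm5d and Uty had -6.40, -3.56, -2.15 and -1.31. In culture Xist had -3.36 and those 4 genes lay between -0.12 and 0.61. A difference that follows genotype and a difference that follows these sex-linked genes cannot be told apart in tissue, nor, for Xist, in culture. Fewer cells of a type and less RNA per cell also cannot be told apart in either sample.

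In KO tissue, 23 of the 28 members had a ratio below 0, against 47.4% of all gene names, and the median log2 ratio was -0.23 against 0.02 over all gene names. Only Mccc1 was at least 2-fold lower, 1 of 28 members (3.57%) beside 2.47% of all gene names, and 0 members were at least 2-fold higher beside 0.968%. The shares past 2-fold were thus close to those over the whole array, and the difference lay in moderate ratios: 9 members (32.1%) lay within the lowest 10% of gene names and 0 within the highest 10%. Those 9 were Bckdhb, Dbt, Bckdk, Mccc1, Mccc2, Acad8, Pcca, Mcee and Oxct1. The sign of the tissue median depends on how the dyes were balanced. Without the intensity-dependent correction (loess) it was 0.15, with 10 of 28 members below 0, while the median of all gene names was 0.21. The gap between the members and all gene names thus shrank from -0.24 to -0.07. Against 10694 gene names within the members' range of brightness, whose median moved from 0.00 to 0.45, it did not shrink. Over all 10 alternatives, 9 members kept a tissue ratio below 0, the same 9 as in the lowest 10%, and 19 changed sign at least once. None could keep a ratio above 0, since the scanner software's ratio less its spike-in intercept put all 28 below 0. Alternatives that shift the ratios together leave the lowest members below 0, so the match with the lowest 10% is no separate result.

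In KO adipocytes, 18 of the 28 members had a ratio below 0, against 52.0% of all gene names, and the median was -0.15 against -0.02. That count was 24 without loess and 22 with the scanner software's ratio less its spike-in intercept, where the median of all gene names was also lower, at -0.23 and -0.19. Over the alternatives 16 members kept a ratio below 0, Abat, Bcat1 and Bdh1 kept one above 0, and 9 changed sign. The 16 include ratios near 0, such as -0.04 for Dbt and -0.10 for Mmachc. Such counts, here and in tissue, were not made over all gene names. Bcat1 alone was at least 2-fold higher (3.57% of members, 2.15% of all gene names), and Mccc1 alone at least 2-fold lower (3.57%, against 3.81%). Bckdha, Bckdhb, Mccc1, Aldh6a1 and Pcca lay within the lowest 10% of gene names, and Bcat1, Bdh1 and Bdh2 within the highest. Side by side, 15 members were lower in KO on both arrays and 2, Abat and Bdh2, higher on both. A further 8 were lower in KO tissue and higher in KO adipocytes, and 3 the reverse. This tally rests on the dye balance: without loess it was 9, 3, 1 and 15. With 23 of 28 members below 0 in tissue and 18 in adipocytes, about 15 lower on both follows from those counts alone. Only Bckdhb, Dbt, Mccc1, Mccc2 and Pcca had a ratio below 0 on both arrays in every alternative run, and 0 members kept opposite signs in all of them. Among these, Dbt was near 0 in adipocytes, within the spread between repeated spots. Across the 28 genes, which share the array design and the dye assignment of each array, Pearson's r of the ratios was 0.28. The tally, the signs kept on both arrays and r are not set beside the same values over all gene names, so no agreement of the arrays is read from them.

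**Figure D1:**
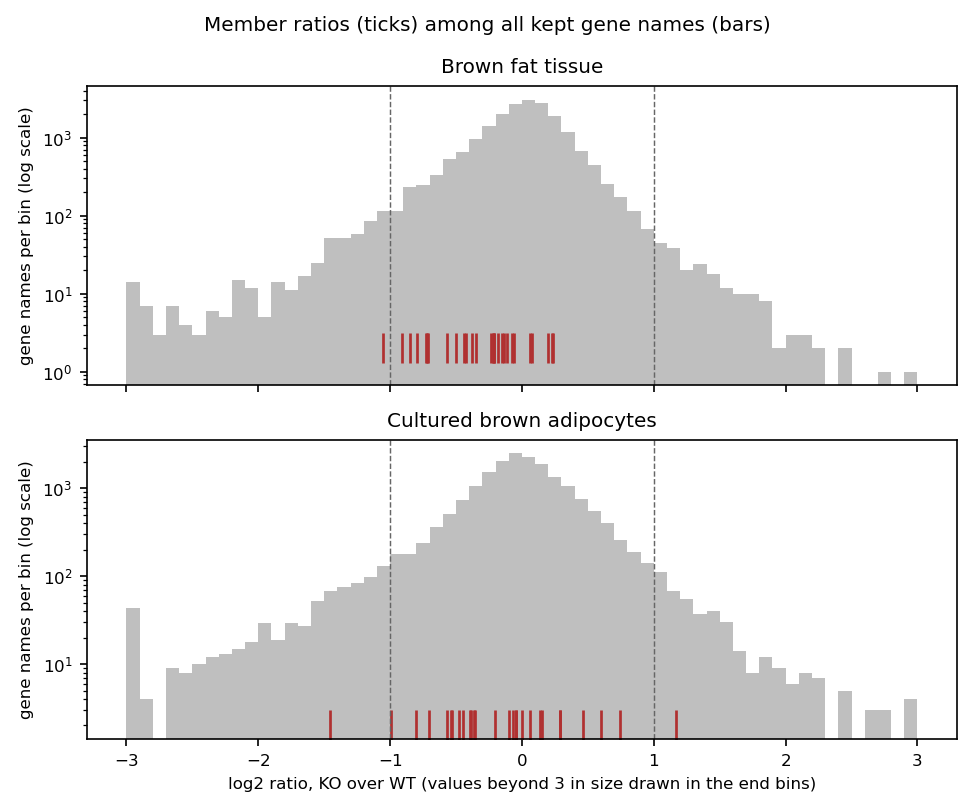
Grey bars count all kept gene names by log2 ratio of KO over WT on each array (log scale), and red ticks mark the 28 members, with dashed lines at 2-fold. In tissue the ticks run from -1.05 to 0.24 and sit mostly left of the peak; in adipocytes they run from -1.45 to 1.17.

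Mccc1, the biotin-carrying alpha subunit of methylcrotonyl-CoA carboxylase in the leucine arm, was the member with the lowest ratio on both arrays. Its normalised log2 signal was 13.26 in WT and 12.20 in KO tissue, and 11.75 in WT and 10.30 in KO adipocytes. These give log2 ratios of -1.05 and -1.45, or 2.08-fold and 2.74-fold lower in KO. Each of its 2 probes gave nearly the same ratio, -1.08 and -1.03 in tissue and -1.43 and -1.48 in adipocytes, gaps smaller than the spread between repeated spots. The probes lie on chromosome 3 at 35767088-35767147 and 35783065-35783880, on a build not given in the files. Before any dye correction the first probe had mean intensities of 14121 in KO (red) and 11886 in WT (green) tissue, and 2727 in KO (green) and 16389 in WT (red) adipocytes. The tissue value was past 2-fold in 8 of 10 alternative treatments of the data, and the adipocyte value in 10 of 10. In tissue it fell short without loess (-0.45, the value nearest 0) and with outlier spots kept (-0.81). Such counts, here and below, do not measure support, since the alternatives are not independent. The filters on dim signal could not move probes this bright, and the deposited ratios repeat those of the scanner software.

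Mccc2, the beta subunit that completes the same enzyme, differed less. Its signal went from 9.76 in WT to 9.26 in KO tissue and from 8.92 to 8.39 in adipocytes, log2 ratios of -0.50 and -0.53. The 2 subunits thus stood apart by -0.56 in tissue, where the probes of Mccc2 read -0.82 and -0.18, and by -0.92 in adipocytes, where they read -0.55 and -0.52. The difference kept its sign in all 10 alternatives on each array, within -0.86 to -0.26 and -0.99 to -0.90. Here and below, a shift common to both genes cancels in a difference, so not every alternative could change it.

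The promoters of Mccc1 and Mccc2 are shown because the 2 genes encode parts of 1 enzyme but had unequal ratios, and those of Bcat1 and Bcat2 because these paralogs had ratios of opposite sign in culture. Each is the 250 bases before the outermost RefSeq start on GRCm38.p6, with the motifs that were found on either strand in capitals. The GC box was searched as GGGCGG. The CCAAT box was searched by the letters of its name. The E-box was searched as CACGTG, which reads alike on both strands. For the TATA box the letters TATAAA were used. They lie at chr3:36000679-36000928 (minus strand), chr13:100015640-100015889 (minus), chr6:145076158-145076407 (minus) and chr7:45569903-45570152 (plus).
Mccc1: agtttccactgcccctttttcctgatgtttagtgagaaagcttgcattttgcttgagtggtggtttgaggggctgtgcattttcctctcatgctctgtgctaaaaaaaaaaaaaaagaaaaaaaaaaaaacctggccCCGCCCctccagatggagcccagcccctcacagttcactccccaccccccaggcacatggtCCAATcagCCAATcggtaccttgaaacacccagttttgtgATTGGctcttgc
Mccc2: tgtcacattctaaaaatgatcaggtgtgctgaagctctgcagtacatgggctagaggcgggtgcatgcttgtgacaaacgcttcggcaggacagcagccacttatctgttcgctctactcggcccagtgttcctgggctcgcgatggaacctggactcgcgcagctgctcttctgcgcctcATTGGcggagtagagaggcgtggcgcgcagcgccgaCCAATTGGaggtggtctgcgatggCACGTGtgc
Bcat1: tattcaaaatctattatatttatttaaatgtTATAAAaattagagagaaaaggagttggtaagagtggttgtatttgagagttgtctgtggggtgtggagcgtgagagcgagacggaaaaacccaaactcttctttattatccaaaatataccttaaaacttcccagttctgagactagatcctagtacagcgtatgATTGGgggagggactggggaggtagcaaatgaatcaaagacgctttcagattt
Bcat2: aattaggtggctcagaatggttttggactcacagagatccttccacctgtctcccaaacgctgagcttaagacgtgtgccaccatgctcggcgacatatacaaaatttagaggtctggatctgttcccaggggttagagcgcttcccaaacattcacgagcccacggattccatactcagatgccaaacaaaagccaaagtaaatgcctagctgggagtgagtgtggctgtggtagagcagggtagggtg

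Mccc1 and Mccc2 each hold 3 CCAAT boxes close to the start, of which 2 overlap in Mccc2, Mccc1 also holds 1 GC box and Mccc2 1 E-box. Before the start used, Bcat1 holds 1 TATA box and 1 CCAAT box, and Bcat2 none of the motifs searched. Bcat1 and Bcat2 each have 2 listed starts, and the bases before the inner one were not searched. Of the 25 members whose promoter was in the table, 15 held a CCAAT box, 13 a GC box, 2 a TATA box and 1 an E-box. The shares over 27025 promoters were 34.5%, 33.0%, 13.0% and 6.04%. The letters TCAAGGTCA (an ERR response element), searched on both strands too, were in 0 of the 25 and in 0.366% of all. These are letter matches and not measured binding.

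The branched-chain aminotransferases catalyse the first step, Bcat1 in the cytosol and Bcat2 in mitochondria. In adipocytes the log2 signal of Bcat1 was 8.53 in WT and 9.70 in KO, a log2 ratio of 1.17 or 2.25-fold higher in KO. Its 2 probes, on chromosome 6 at 145110056-145110115 and 145090030-145090089, read 1.05 and 1.29. In tissue Bcat1 was dim and near equal, at 7.64 in WT and 7.57 in KO. That value rests on 1 probe, the other being left out for an outlier mark, and ran from -0.72 to 0.12 over the alternatives. The adipocyte ratio of Bcat1 was the highest member ratio of the series, past 2-fold in 9 of 10 alternatives. The lowest there was 0.87, without loess.

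Bcat2 was lower in KO adipocytes, at 7.28 against 7.64 in WT, a log2 ratio of -0.36 with 3 probes from -0.65 to -0.08. The isoforms therefore stood apart by -1.53 (Bcat2 minus Bcat1) in culture, between -1.94 and -1.39 over the alternatives. In tissue Bcat2 read 0.24, but its 2 probes gave -0.17 and 0.65, and its difference from Bcat1 changed sign in 2 of 10 alternatives. No direction is given for it there.

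**Figure D2:**
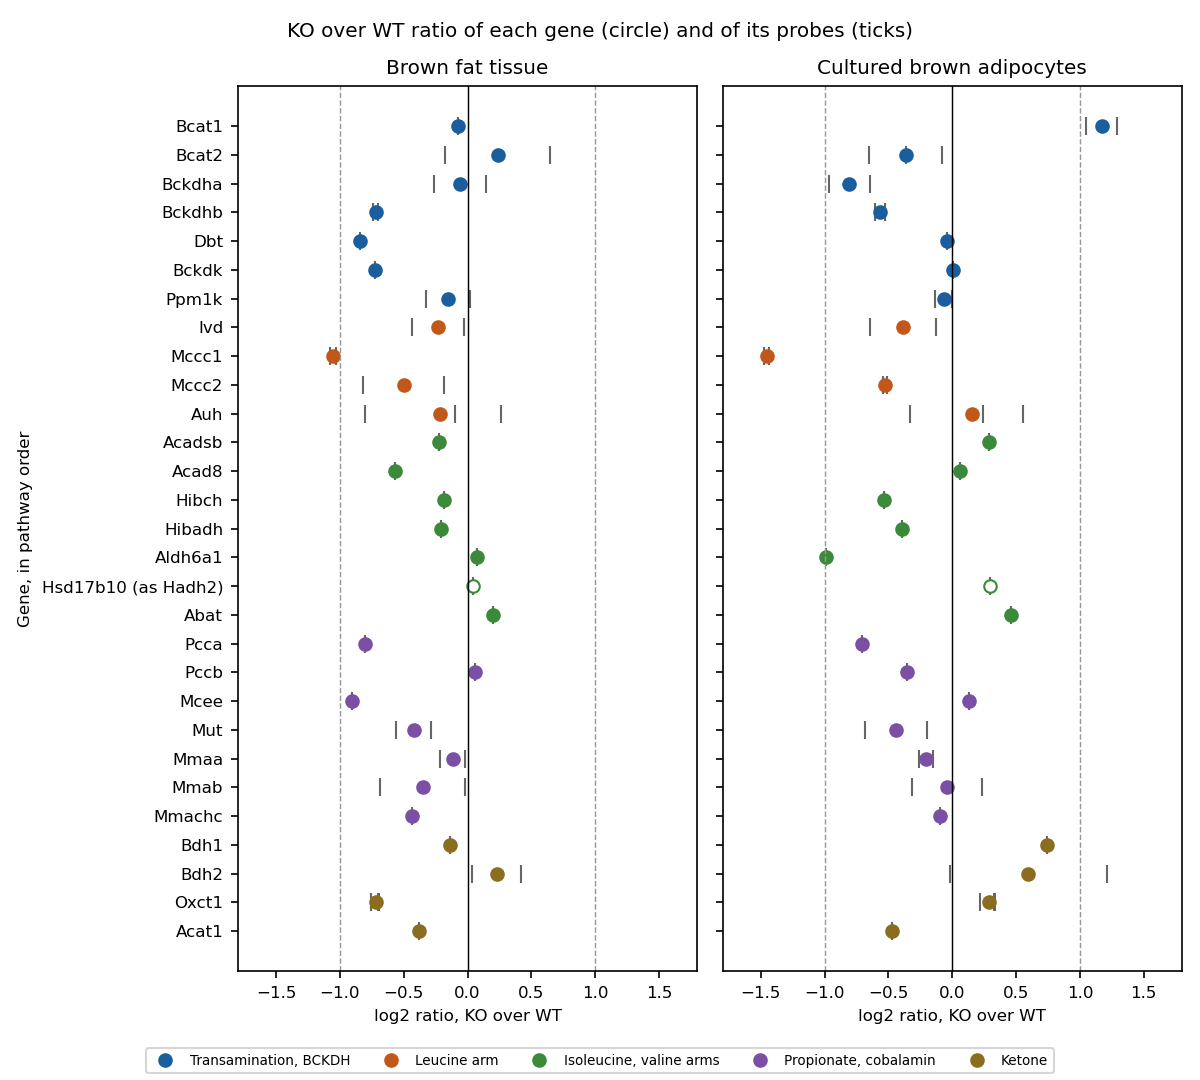
Circles give the log2 ratio of KO over WT of each gene in pathway order, ticks its kept probes, colours its step, the open circle Hsd17b10 (spotted as Hadh2), and dashed lines 2-fold. Mccc1 lies at -1.05 in tissue and -1.45 in culture with ticks close together, Bcat1 at 1.17 in culture only, and the probes of Auh and Bdh2 lie far apart.

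BCKDH is built of a decarboxylase with alpha (Bckdha) and beta (Bckdhb) subunits and the transacylase core Dbt, and is switched off by the kinase Bckdk and on by the phosphatase Ppm1k. Dbt was at 12.03 in WT and 11.19 in KO tissue, a log2 ratio of -0.85. Bckdhb was at 14.57 and 13.85, a ratio of -0.72 with both probes between -0.74 and -0.70. Without loess these shrank to -0.30 for Dbt and -0.05 for Bckdhb. Bckdha, its partner, was at 14.16 and 14.10, a ratio of -0.06 with probes of opposite sign (-0.26 and 0.14). The decarboxylase subunits thus differed by 0.66 in tissue, between 0.44 and 0.88 over 10 alternatives.

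In adipocytes the order of the subunits was another. Bckdha had the lowest ratio, -0.81 (10.80 in WT, 9.99 in KO), Bckdhb followed with -0.57 (11.28 and 10.71), and Dbt read -0.04 (9.57 and 9.52). Dbt minus Bckdha was -0.79 in tissue and 0.76 in adipocytes, with the same sign as these in every alternative run. Bckdha and Bckdhb differed by -0.24 in culture, a size below the gap between the 2 Bckdha probes (-0.97 and -0.64).

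Of the regulators, Bckdk was at 12.96 in WT and 12.24 in KO tissue, a log2 ratio of -0.73, and at 11.67 in both adipocyte samples, a ratio of 0.00. Without loess those ratios were -0.15 and -0.41. Ppm1k read -0.15 and -0.07, with probes of both signs on each array and no direction on either. Bckdk minus Ppm1k was -0.57 in tissue, between -0.75 and -0.50 over the alternatives, and 0.07 in adipocytes, where the sign changed in 3 of 10.

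The remaining leucine enzymes lay nearer 0. Ivd, isovaleryl-CoA dehydrogenase, read -0.23 in tissue and -0.39 in adipocytes, with 2 probes below 0 on each array. Without loess its tissue value was 0.32, so that no direction is given for it there. Auh, methylglutaconyl-CoA hydratase, read -0.21 and 0.15, but its 3 probes ran from -0.81 to 0.26 and from -0.33 to 0.56. Its summary value therefore has no direction on either array.

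In the valine arm Aldh6a1, methylmalonate semialdehyde dehydrogenase, which releases propionyl-CoA, was at 12.65 in WT and 11.66 in KO adipocytes. That log2 ratio of -0.99, or 1.99-fold lower, lay just short of the 2-fold mark, and 4 of 10 alternatives placed it past the mark, with values from -1.39 to -0.99. In tissue it was at 14.82 and 14.89, a ratio of 0.08. Hibch and Hibadh, the hydrolase and dehydrogenase just upstream of it, read -0.54 and -0.39 in adipocytes and -0.19 and -0.21 in tissue. Without loess the tissue values of Hibch and Hibadh were 0.54 and 0.52. These 3 consecutive steps of the valine arm were thus all lower in KO adipocytes, each on a single probe.

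The acyl-CoA dehydrogenases Acadsb (isoleucine) and Acad8 (valine) had log2 ratios of -0.22 and -0.57 in tissue and of 0.29 and 0.06 in adipocytes, of which only the tissue value of Acad8 and the adipocyte value of Acadsb exceed the usual SD between probes of a member. Without loess these became -0.05 and -0.13. Acad8 went from 11.17 to 10.60 in tissue. Abat, the aminotransferase that handles GABA and the semialdehyde of valine, read 0.20 and 0.46, and the adipocyte value alone kept its sign in all alternatives. It was at 8.74 and 8.94 in WT and KO tissue, and at 9.19 and 9.65 in adipocytes.

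Propionyl-CoA carboxylase has a biotin-carrying alpha subunit, Pcca, and a beta subunit, Pccb. Pcca was at 13.00 in WT and 12.20 in KO tissue and at 10.67 and 9.96 in adipocytes, log2 ratios of -0.80 and -0.71 or 1.74-fold and 1.63-fold lower. Without loess its tissue ratio shrank to -0.22. Pccb was at 12.45 and 12.51 in tissue and at 9.51 and 9.16 in adipocytes, ratios of 0.06 and -0.35. The alpha minus beta difference was -0.86 in tissue, between -0.87 and -0.81 over 10 alternatives, and -0.35 in adipocytes, between -0.41 and -0.35. The choice and filtering of probes cannot move a difference between genes with 1 probe each, so these narrow ranges are partly fixed by the design. In both carboxylases of the list the biotin-carrying subunit was therefore the lower of the pair on each array, with 1 probe for each subunit of propionyl-CoA carboxylase.

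**Figure D3:**
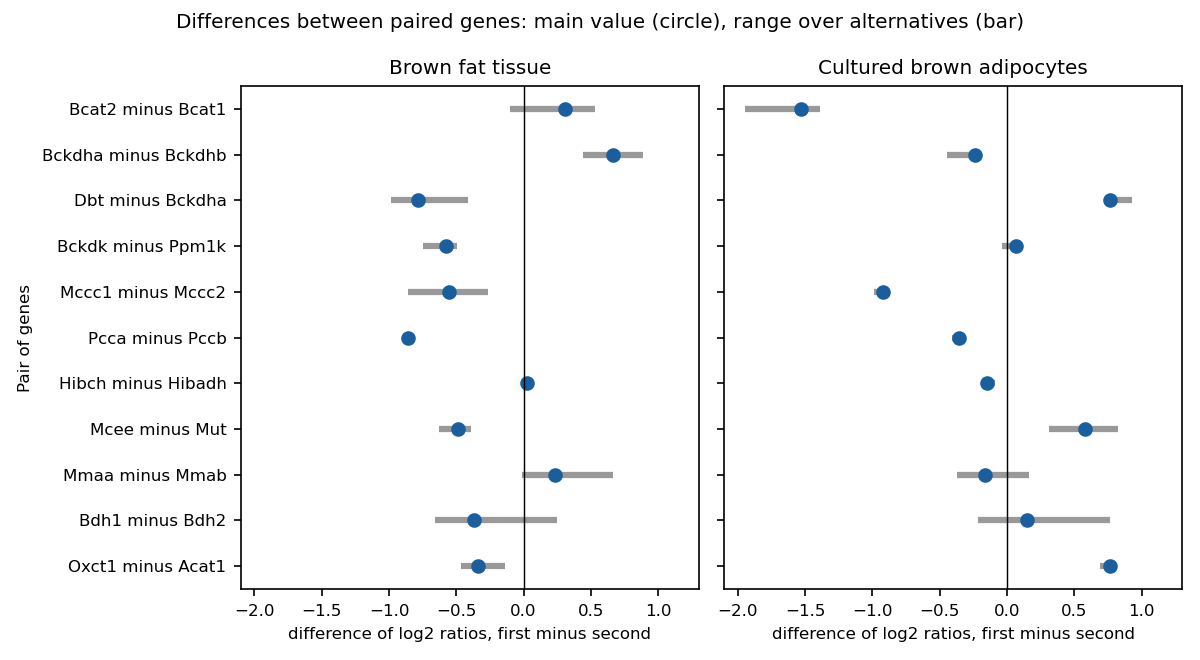
Circles give the difference between the log2 ratios of 2 genes on 1 array (first minus second), and grey bars its range over the alternative treatments. Mccc1 minus Mccc2 and Pcca minus Pccb lie left of 0 on both arrays, at -0.56 and -0.86 in tissue, while Dbt minus Bckdha lies at -0.79 in tissue and 0.76 in culture.

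The next enzymes, methylmalonyl-CoA epimerase (Mcee) and the cobalamin-dependent mutase (Mut), lay apart on both arrays, with Mcee the lower in tissue and the higher in culture. Mcee was at 13.50 in WT and 12.59 in KO tissue, a log2 ratio of -0.91, and at 10.08 and 10.21 in adipocytes, a ratio of 0.13. Mut read -0.42 in tissue (14.14 and 13.72) and -0.44 in adipocytes (12.91 and 12.46). Without loess the tissue ratios were -0.31 for Mcee and 0.24 for Mut. The adipocyte ratio of Mcee ran from -0.29 to 0.14 over the alternatives, so that it has no direction there. Mcee minus Mut was -0.48 in tissue and 0.58 in adipocytes, each with the same sign in 10 of 10 alternatives.

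Mmaa, Mmab and Mmachc, which deliver and process cobalamin for the mutase, read -0.12, -0.35 and -0.44 in tissue and -0.21, -0.04 and -0.10 in adipocytes. Without loess the tissue values were 0.05, 0.06 and 0.06, so that no direction is given for them there. Mmab had probes at -0.68 and -0.02 in tissue and of both signs in adipocytes, so that a difference from Mmaa was not stable in sign.

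Oxct1, the transferase by which tissues outside liver activate acetoacetate, was at 13.47 in WT and 12.76 in KO tissue. Its log2 ratio was -0.71, and its 3 probes lay between -0.75 and -0.69. In adipocytes it was at 13.75 and 14.04, a ratio of 0.29 with probes between 0.21 and 0.33. The 3 probes thus lay close together on each array. The opposite sign of the arrays rests on the dye balance, since without loess Oxct1 read -0.10 in tissue and -0.14 in adipocytes.

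Acat1, the mitochondrial thiolase that splits acetoacetyl-CoA and also closes the isoleucine arm, read -0.38 in tissue (15.39 and 15.01) and -0.48 in adipocytes (13.53 and 13.05). Without loess its tissue value was 0.36, so that no direction is given for it there. Oxct1 minus Acat1 was -0.34 in tissue and 0.77 in adipocytes, the latter between 0.69 and 0.77 over the alternatives.

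Bdh1, the mitochondrial 3-hydroxybutyrate dehydrogenase, was at 6.98 in WT and 7.72 in KO adipocytes, a log2 ratio of 0.74 on the 1 probe above background. In tissue its WT signal was not well above background and no fold is given. Bdh2, a cytosolic dehydrogenase, read 0.60 in adipocytes, but 1 probe gave -0.02 and the other 1.22. In tissue it read 0.23 with a dim second probe.

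**Figure D4:**
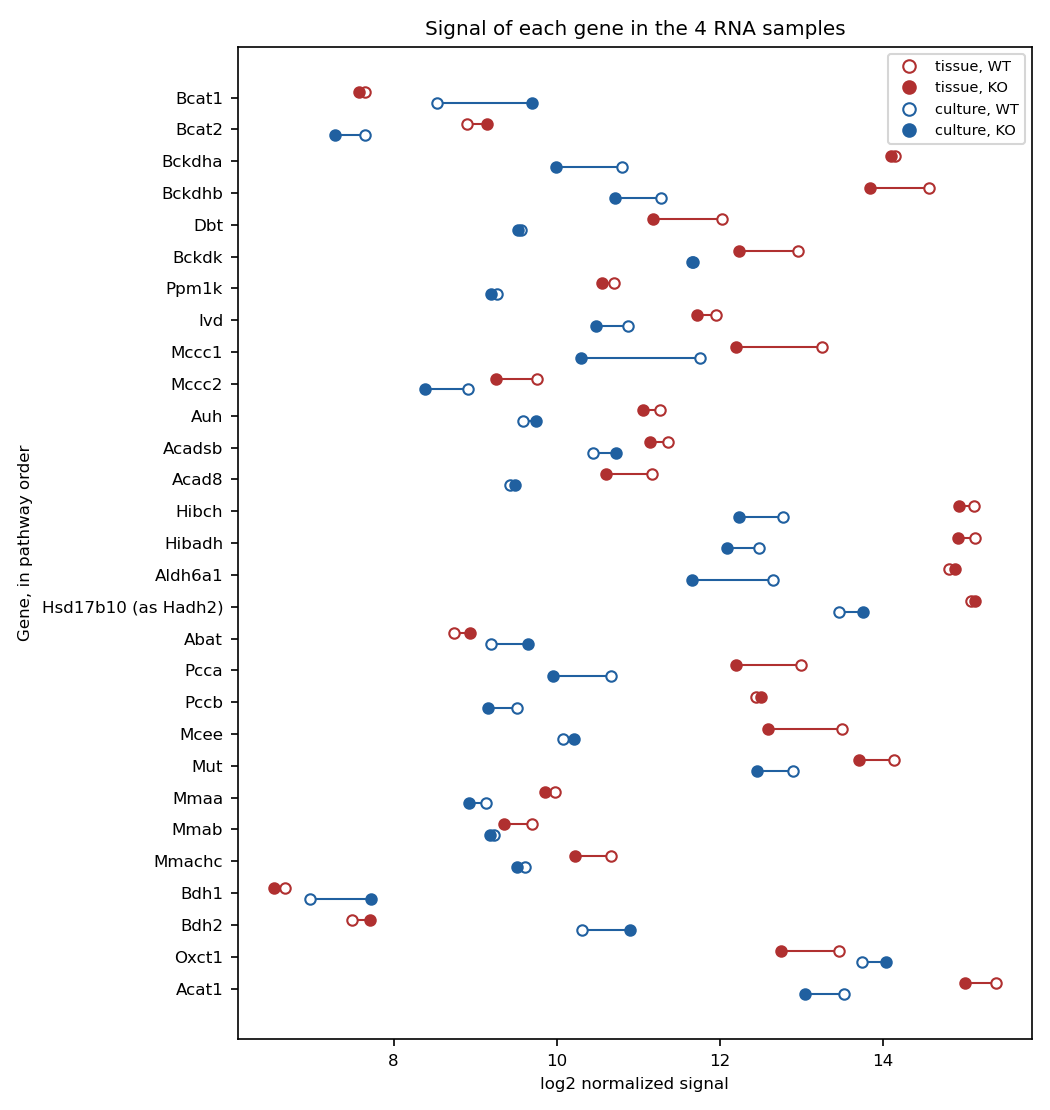
Points give the normalised log2 signal of each gene in the 4 RNA samples (open WT, filled KO, red tissue, blue culture), and lines join the 2 genotypes of an array. Mccc1 goes from 13.26 to 12.20 in tissue and from 11.75 to 10.30 in culture, and Bcat1, Bdh2 and Oxct1 lie further right in culture than in tissue.

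The same probes were also read across the 2 kinds of sample, which lie on different arrays, so that array and sample kind cannot be told apart. Averaged over the genotypes, the signal of 17 members (60.7%) was at least 2-fold higher in tissue, against 17.5% of 18074 gene names, and that of 2 members (7.14%) at least 2-fold higher in culture, against 17.9%. The median difference, tissue minus culture, was 1.41 on the log2 scale, against -0.04 over all gene names. A total of 23 members were higher in tissue in both genotypes, led by Bckdha (3.73), Bckdhb (3.21) and Pccb (3.15). The 5 that were higher in culture in both genotypes were Bcat1 (-3.17), Bdh2 (-3.01), Oxct1 (-0.79), Abat (-0.58) and Bdh1. No size is given for Bdh1, whose WT tissue signal was not well above background; Bdh2 likewise rests on 1 probe above background in WT tissue.

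The other genes of these pathways (35 listed) include the carriers, shared subunits and neighbouring enzymes. Of the 32 measured in tissue, 0 were at least 2-fold higher and 1 lower, with a median of -0.11. The one was Slc16a1, a carrier of lactate and ketone bodies, at -1.12. Of the 31 measured in adipocytes, 0 were higher and 3 lower, with a median of -0.46. These were Acaa2 (-1.90) and Hadh (-1.69), enzymes of fatty acid oxidation, and Slc5a6 (-1.21), a carrier of biotin.

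The citric acid cycle and pyruvate dehydrogenase list, which takes up the products of these pathways, had a median of -0.28 in tissue with 0 of 22 genes past 2-fold. In adipocytes all 22 were below 0, 7 of them at least 2-fold lower, with a median of -0.75. The members' median in adipocytes, -0.15, was thus nearer 0 than that of their neighbours on the same array.

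Markers of cell types moved with genotype on both arrays, and their part in the members' values was not tested. In tissue all 15 measured skeletal muscle markers were at least 2-fold lower in KO, with a median of -2.52 and a summed log2 signal of 18.82 in WT and 16.37 in KO; Tnnt1 read -3.31. The fat cell list had a median of 0.17, with 1 of 12 past 2-fold, Cfd at 1.78, and summed signals of 18.91 in WT and 19.42 in KO. Of 8 brown fat markers 7 were below 0. Elovl3 (-2.14), Ucp1 (-1.84) and 1 other were at least 2-fold lower and 1 was at least 2-fold higher. Macrophage, endothelial, smooth muscle and fibroblast, and lymphocyte lists had medians from -0.30 to -0.12.

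In KO adipocytes all 12 fat cell markers were at least 2-fold lower, with a median of -3.93 and summed signals of 17.79 in WT and 13.25 in KO; Cfd read -5.67 and Fabp4 -5.58. Brown fat markers had a median of -0.91 with 7 of 8 below 0. At least 2-fold lower were 4, among them Ucp1 (-3.78) and Cidea (-3.38). All 10 macrophage markers were below 0 and 8 at least 2-fold lower, with a median of -1.55 and Clec7a at -3.63. Their summed signals were 17.72 in WT and 15.67 in KO. In the smooth muscle and fibroblast list 6 of 8 were above 0 and 4 at least 2-fold higher, with a median of 0.76 and Cnn1 at 2.75. Its summed signals were 15.80 in WT and 17.47 in KO. Endothelial and lymphocyte lists had medians of -0.33 and -0.20, with 0 genes past 2-fold. The KO culture thus carried far less signal of fat cell genes than the WT culture. The members' median was -0.15, nearer 0 than the -3.93 of the fat cell list. That members' median became -0.49 without loess, -0.40 with the scanner software's ratio less its spike-in intercept and -0.32 with the brightest probe.

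**Figure D5:**
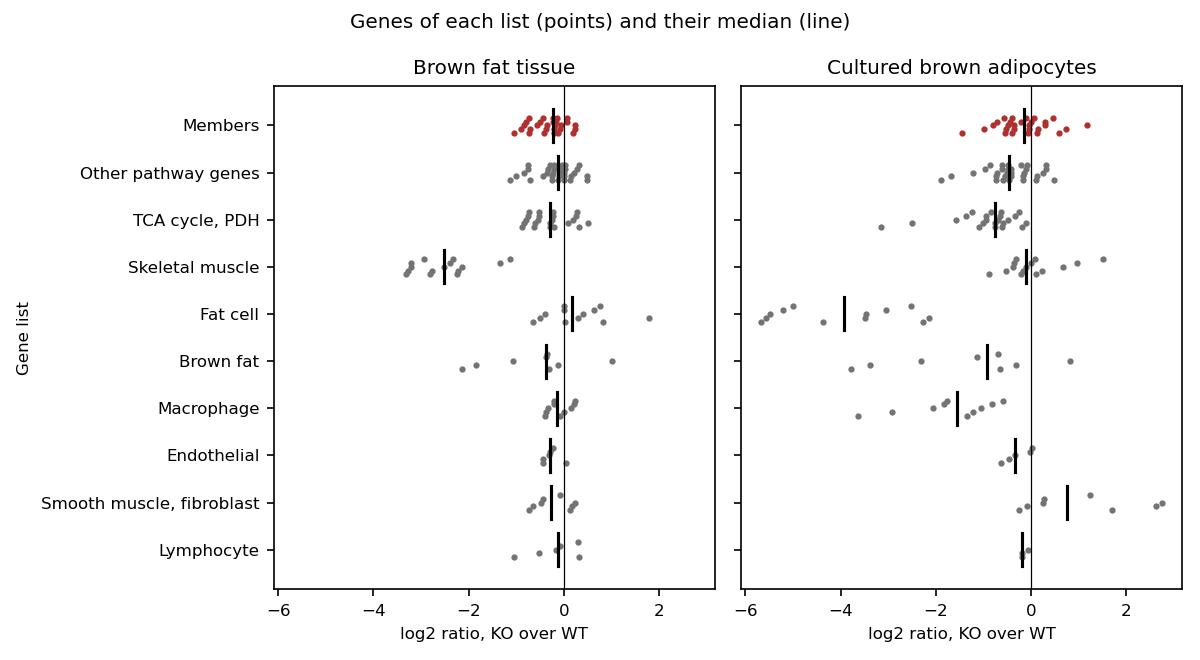
Points give the log2 ratio of KO over WT of each measured gene by list, and black lines the list median. The members (red) have medians of -0.23 and -0.15, while the skeletal muscle list has -2.52 in tissue and the fat cell list -3.93 in adipocytes.

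Regulators of fat cell and amino acid genes had their own pattern. Klf15, a transcription factor known to act on amino acid breakdown genes, read 1.02 in tissue and -1.05 in adipocytes. Pparg, the master factor of fat cells, read 0.82 and -3.49, and its coactivator gene Ppargc1a -0.35 and -2.31. No relation of these values to the members was tested.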

How the data were processed

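Agilent Feature Extraction 9.5.1.1 made the deposited spot intensity (mean signal, local background) and a dye-normalised log10 ratio, red over green, per the file headers. The authors' value table of log10 ratios matched that ratio, turned to KO over WT, within 0.02 on the log2 scale, with medians of 0.09 and 0.02 and empty for 7623 and 6968 gene spots. Ratios were computed from the intensities with limma 3.58.1 in R 4.3.3: gene spots with an outlier mark (1215 in tissue, 203 in adipocytes) left out (the set of marks was chosen after the files were seen), normexp with offset 50, loess with weight 0 for controls, KO over WT. Spots of a probe and kept probes of a gene were averaged, dropping probes not well above background in either channel. Levels were taken per channel after loess and Aquantile scaling. Members, lists and pairs were chosen with earlier results of these data known. All members are accounted for; of each other list the 2 largest, or those past 2-fold, are named. The steps were tested on simulated arrays with a smooth dye trend and as many raised as lowered genes. On the real arrays more genes were lower than higher past 2-fold, so the simulation could not test how loess behaves there.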

Additional observations from a re-analysis of the deposited data

Results flagged for a closer look

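Hsd17b10, the dehydrogenase of the isoleucine arm encoded on the X chromosome, was measured only by a probe named Hadh2, and so lies outside the counts above. Its signal was well above background in all 4 RNA samples. Its log2 ratio of KO over WT was 0.046 in tissue, at levels of 15.09 in WT and 15.13 in KO, and 0.298 in adipocytes, at 13.47 and 13.77. In tissue this is within the spread of repeated spots. Counted with the other 28 genes it moved the tissue median to -0.22 and the adipocyte median to -0.10.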

How the results depend on the processing

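No paired analysis was possible because each comparison is 1 array. Across 8 alternatives set at the start and others added after the data were seen, 0 members were at least 2-fold higher in tissue under any. Of the medians, that of the tissue changed sign, as did the ratios of 19 members in tissue and 9 in adipocytes under at least 1 alternative. The tissue median of -0.23 became -0.34 with offset 0, 0.15 without loess, -0.11 with outlier spots kept, -1.16 with the Feature Extraction ratio less its spike-in intercept, and -0.36 without members whose probes disagree in sign. The 1 lower member became 0 without loess and with outlier spots kept, and 19 with the spike-in intercept, where the median of all gene names was -0.73. The adipocyte median of -0.15 became -0.49 without loess, -0.32 with the brightest probe, -0.40 with the spike-in intercept and -0.36 without members whose probes disagree. The 1 higher adipocyte member became 2 with offset 0 and 0 without loess; the 1 lower became 4 without loess, 2 with the Feature Extraction ratio and the deposited table, and 3 with the spike-in intercept. Genes at least 2-fold higher in tissue over the array numbered 199 (508 lower); 699 (1210) with offset 0, 943 (605) without loess, 2357 (1374) with the Feature Extraction ratio, 568 (5969) with the spike-in intercept and 47 (112) with outlier spots kept, where Mccc1 was at -0.81 and 20 of 28 members moved by more than the SD between repeated spots. In adipocytes they numbered 419 (742); 709 (1041) with offset 0, 212 (1485) without loess, 1030 (1241) with the Feature Extraction ratio and 664 (1766) with the spike-in intercept. The cause of these shifts was not tested. Read from the KO channels alone, 4 members were at least 2-fold higher in culture. With 1 array a comparison, dye bias of single genes cannot be told apart from genotype.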

Other observations

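Beyond the list, the other biotin-dependent carboxylases and the genes that supply biotin were read after the values of Mccc1 and Pcca had been seen. Pcx, pyruvate carboxylase, had log2 ratios of -0.80 in tissue and -3.15 in adipocytes. Acaca, the acetyl-CoA carboxylase of fatty acid synthesis, had -0.91 and -1.06 over 4 probes. Those probes ran from -1.81 to -0.31 in tissue and from -1.89 to -0.68 in adipocytes. Over the alternatives the tissue values nearest 0 were -0.10 for Pcx and -0.28 for Acaca. Acacb, a relative found at mitochondria, had 0.25 in tissue, and in adipocytes its 2 probes gave -1.97 and -0.03. Of the supply genes, Hlcs, which attaches biotin to these enzymes, had 0.01 and -0.09, and Btd, which recycles it, -0.04 and -0.18, while the biotin carrier Slc5a6 had -0.35 and -1.21. The biotin-carrying genes thus had mean ratios below 0 on both arrays, Acacb in tissue being the exception. With 1 array a comparison there is no test of this group, and it was chosen after its values were seen.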
